A study of Mus musculus with 2 samples.

Results

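Lysosomal hydrolases and the proton pump that acidifies the lysosome were compared between splenocytes of GPI-immunized and control mice. The genes were the 37 lysosomal genes of a list of cathepsins, glycosidases, lipid hydrolases, membrane proteins, lysozymes and the transcription factor Tfeb, together with every gene whose symbol starts with Atp6v or Atp6ap, provided that a probe set of the array carried its symbol and no other. This gave 57 of the 12393 genes measured, 36 from the list and 21 of the proton pump. Cd63 and the proteolipid gene Atp6v0c had no probe set of that kind. Splenocytes of male DBA/1 mice aged 6 to 8 weeks were taken on day 10 after intradermal immunization in complete Freund's adjuvant, with 300 μg of recombinant human glucose-6-phosphate isomerase (GPI) fused to glutathione S-transferase (GST) in the arthritic group and with 100 μg of GST in the control group. Both groups therefore carry the adjuvant, an emulsion with killed mycobacteria, and unimmunized mice were not analysed here. Spleens of 3 mice per group were harvested, and each group was read on 1 Affymetrix mouse GeneChip. No source used here states whether RNA of the 3 mice was pooled.

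Lysosomes digest proteins, sugars and lipids that reach them by endocytosis, phagocytosis and autophagy. Their enzymes work in an acid lumen that a rotary ATP-driven pump maintains, built from a membrane sector called V0, through which the protons pass, and a cytosolic sector called V1, which hydrolyses ATP. In the spleen, macrophages use lysosomes to degrade senescent red cells and microbes, and antigen-presenting cells use lysosomal proteases to cut antigens and the invariant chain of MHC class II.

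A GeneChip reports 1 signal per probe set, a group of short probes for a transcript, here as a deposited intensity on a linear scale. Each gene was represented by its brightest probe set (by mean log2 signal), and the ratio is the GPI-immunized over the control signal without further scaling. Without replicates no test could be run, and each ratio describes these 2 arrays. Genes were kept where the brighter array gave at least 50.2, which is the 50th percentile over all signals. Of the 57 genes, 49 passed, all of them on both arrays, so that none passed through the array where it was brighter alone. As a measure of the spread between probe sets, the log2 ratios of the 2 brightest probe sets of the same gene were compared over 2538 genes. They spread around each other with an SD, per probe set, of 0.26, a factor of 1.20. Over the 28 lysosomal and proton pump genes with such a pair the SD was smaller, 0.17, a factor of 1.13. Both probe sets of a pair were read on the same 2 arrays. This spread therefore holds no variation between mice, and none between RNA preparations or hybridizations that shifts both probe sets alike.

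Most lysosomal and proton pump genes differed little between the arrays, 37 of the 49 (75.5%) by less than a factor of 1.20, against 58.1% of all genes above the filter. None of the 49 differed by 2-fold or more, where 2.23% of the 6961 genes above the filter reached 2-fold upward and 0.445% reached it downward. At 1.5-fold, 2 genes were higher, Lamp2 and Atp6v1b2 (4.08% of the 49, against 7.05% of all genes), and none was lower (against 3.23% of all genes). The median log2 ratio was 0.055 for the 49 genes and 0.056 for all genes above the filter. Their log2 ratios had an SD of 0.26, against 0.40 for all genes, and thus spread more widely than the probe sets of these genes did around each other (0.17). Within the factor of 1.13 lay 25 of the 49 (51.0%, against 42.8% of all genes). The genes were bright as a group, and 41 of them also passed a filter at the 75th percentile of signals (219.8). Above that level the SD was 0.26 for these 41 and 0.36 for all 3868 genes. Ratios above 1 were found for 27 of the 49 (55.1%, against 57.5% of all genes). When each array was divided by its median, 23 of the 49 had ratios above 1, against 3139 of 6959 for all genes. The median log2 ratio was then -0.035, the same as that of all genes, also -0.035. With this scaling, 359 of all genes passed 1.5-fold upward and 382 downward, against 491 and 225 without it, while Lamp2 and Atp6v1b2 remained the only genes of the 49 past 1.5-fold.

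**Figure D1:**
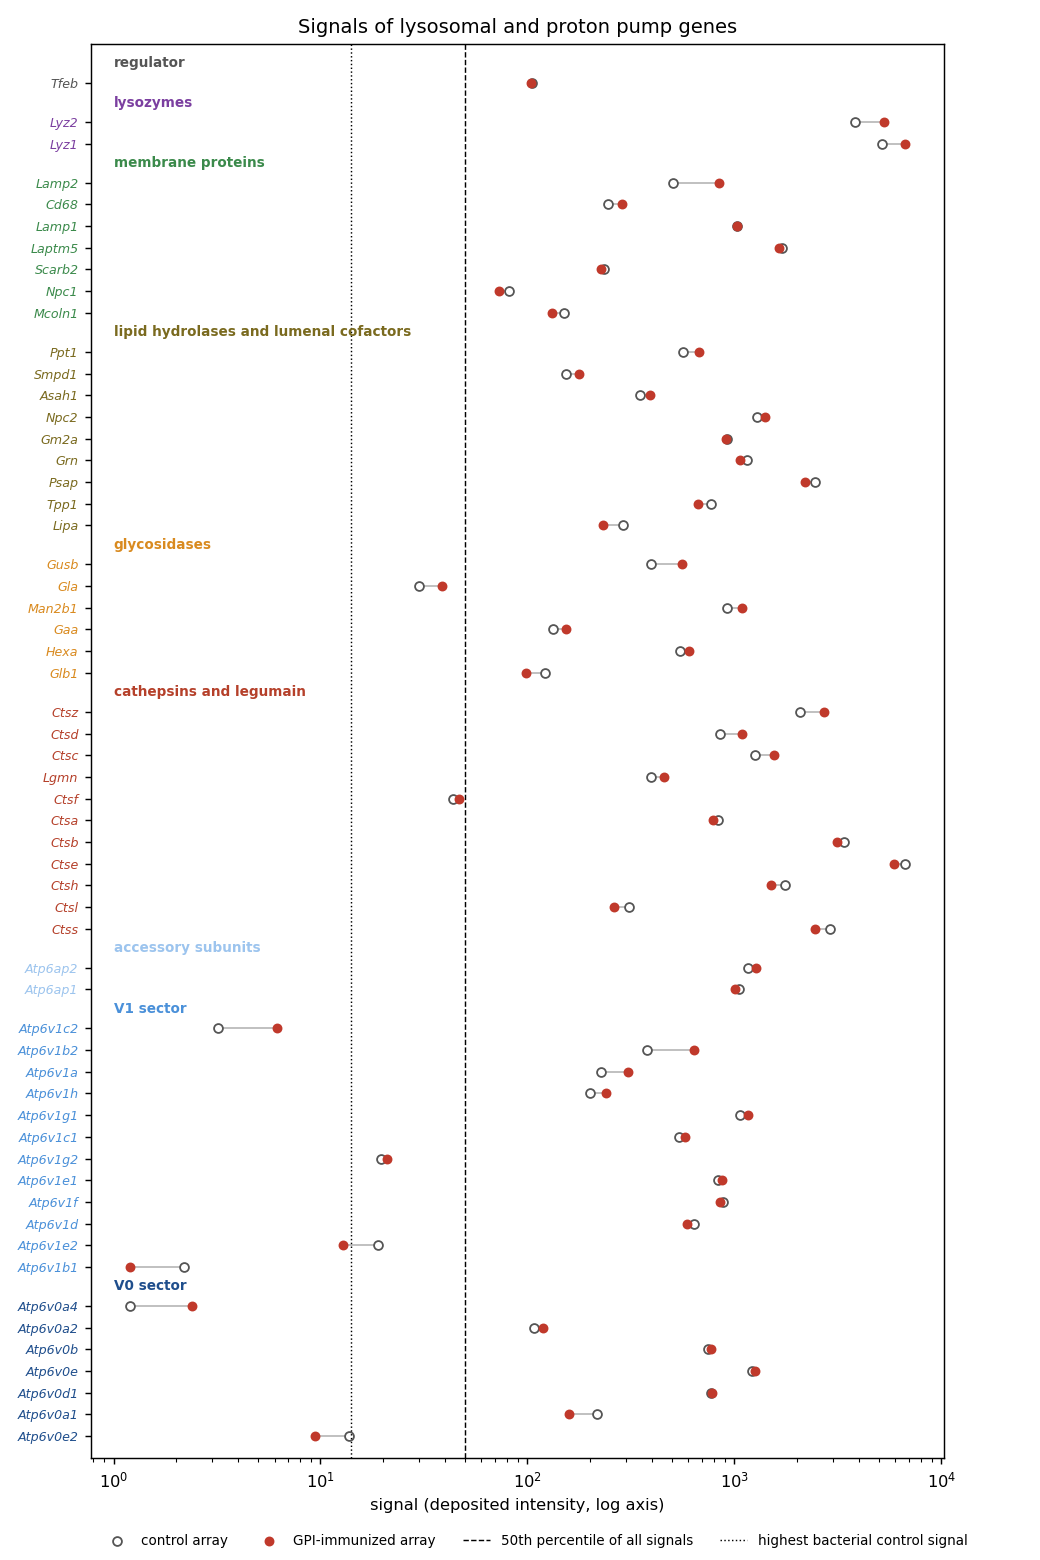
Signals of the 57 genes on the control array (open circles) and the GPI-immunized array (filled circles), deposited intensities on a log axis with 1 array per group, ordered by role and ratio. The circles of most genes nearly coincide, Lamp2 (507.9 and 841.2) and Atp6v1b2 (377.1 and 640.0) are the widest pairs above the 50th percentile (dashed line, 50.2), and 8 genes lie under that line.

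Lamp2 was the membrane protein that stood apart. LAMP-2 is a heavily glycosylated protein that lines the lysosomal membrane, and its splice forms serve in chaperone-mediated autophagy and in the fusion of autophagosomes with lysosomes. The control array gave it a signal of 507.9 and the array of GPI-immunized mice 841.2, a ratio of 1.66. All 4 of its probe sets were brighter on the GPI-immunized array, with ratios from 1.45 to 1.69. The ratio ran from 1.56 to 1.66 over the 7 other scalings, floors and choices of probe set. Its close relative Lamp1, the other major protein of this membrane, had signals of 1028.9 and 1028.5, a ratio of 1.00. The pair of LAMP genes thus differed from each other by more than the spread between probe sets, although Lamp1 was read by a single probe set.

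The remaining membrane proteins lay close to 1. Cd68, a LAMP-related protein of macrophages, had signals of 244.0 and 287.4, a ratio of 1.18. Scarb2, the receptor that carries β-glucocerebrosidase to the lysosome, had 235.4 and 226.0, a ratio of 0.960, and its dimmer probe set gave 1.22, on the other side of 1. Laptm5, a lysosomal protein of haematopoietic cells that promotes degradation of antigen receptors, had 1700.1 and 1649.1, a ratio of 0.970. The cholesterol exporter Npc1 (81.9 and 73.3) and the calcium channel mucolipin 1, encoded by Mcoln1 (150.6 and 132.1), had ratios of 0.895 and 0.877. Of the 7 membrane proteins 2 had ratios above 1 (28.6%, against 57.5% of all genes). Their median log2 ratio was -0.044. When probe sets that can bind several transcripts were left out, only 4 genes remained, with a median of 0.089.

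In the proton pump, the ratios were highest for the ATP-hydrolysing head of V1. Atp6v1b2, which encodes the B2 subunit of that head, had signals of 377.1 and 640.0, a ratio of 1.70. Its next probe set had signals of 193.5 and 249.8, a ratio of 1.29, below the 1.5-fold limit, and the dimmest was under the filter with 4.6 and 8.5. Atp6v1a, which encodes the catalytic A subunit that alternates with B in the head, had signals of 226.6 and 306.2, a ratio of 1.35, and 1.45 from its other probe set. Both genes of the head were therefore brighter on the GPI-immunized array with every probe set above the filter. The regulatory H subunit (Atp6v1h) followed with 201.1 and 240.3, a ratio of 1.19.

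The stalks and the other V1 subunits differed less. Atp6v1g1 and Atp6v1e1, which form the peripheral stalks, had ratios of 1.10 (1061.2 and 1164.9) and 1.04 (837.7 and 871.3). Atp6v1f and Atp6v1d, of the central rotor, had ratios of 0.972 (879.9 and 855.1) and 0.932 (636.2 and 592.8), and all 3 probe sets of Atp6v1d lay below 1, down to 0.775. Subunit C, encoded by Atp6v1c1, which links the stalks and leaves V1 when the pump comes apart, gave 1.08 from its brightest probe set (537.9 and 579.8) and as little as 0.796 from the others, so its direction was not settled. Over the 8 V1 genes above the filter the median log2 ratio was 0.12.

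The membrane sector V0 was nearly level between the arrays, apart from an isoform of subunit a. Atp6v0d1 had signals of 770.5 and 776.5 (ratio 1.01), Atp6v0e 1223.6 and 1255.7 (1.03), and the proteolipid gene Atp6v0b 742.1 and 771.2 (1.04). Subunit a directs the pump to different membranes. Its isoform gene Atp6v0a1 had 216.8 and 159.7, a ratio of 0.737 and the lowest of all 49 genes. Its second probe set above the filter had 56.6 and 55.5, a ratio of 0.981. The isoform Atp6v0a2 had 107.7 and 118.7, a ratio of 1.10, with further probe sets up to 1.35. A further isoform of subunit a, encoded by Tcirg1, had 222.1 and 249.3, a ratio of 1.12. Its symbol has neither prefix, so it was counted with the other lysosomal membrane and transport proteins and not with V0. The log2 ratios of the 5 V0 genes above the filter had a median of 0.037. The accessory proteins Atp6ap1 and Atp6ap2 (the (pro)renin receptor), which help to assemble the pump, had ratios of 0.956 (1054.0 and 1008.1) and 1.09 (1162.1 and 1270.6).

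Over the pump genes taken by symbol, without Tcirg1, 15 passed the filter, with a median log2 ratio of 0.057. Of these, 11 had ratios above 1 (73.3%, against 57.5% of all genes). Division by the array medians, quantile normalization and loess centring each left 7 of 15, against 3139, 3231 and 3346 of 6959 for all genes. The median after division was -0.034, so the pump as a group had no settled direction. The 6 pump genes under the filter included isoforms known from other organs. Atp6v1b1 (2.2 and 1.2) and Atp6v0a4 (1.2 and 2.4), whose products serve in acid-secreting cells of the kidney, lay under the highest signal of the bacterial control probe sets (14.1), as did Atp6v1c2 (3.2 and 6.2) and Atp6v0e2 (13.7 and 9.4). No ratio is given for these 4. Atp6v1g2, of neurons, had signals of 19.7 and 21.0, and Atp6v1e2, of the testis, 18.9 and 12.9.

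**Figure D2:**
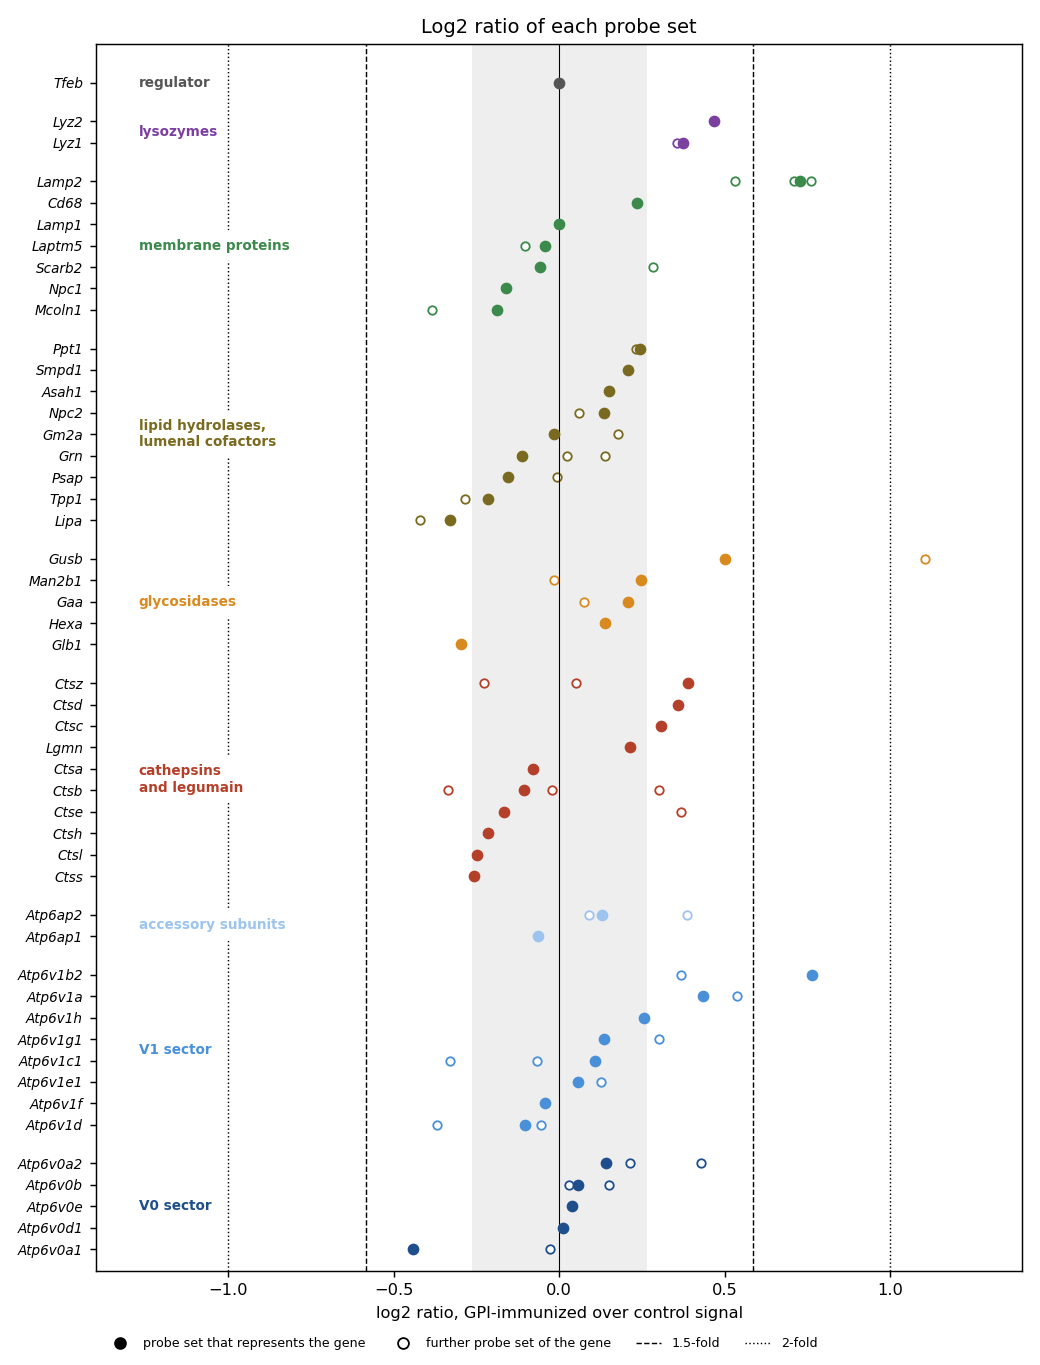
GPI-immunized over control signal, as a log2 ratio, for each probe set above the filter of the 49 genes, 1 array per group, with the probe set that represents the gene filled and the others open. The grey band is the SD between probe sets of a gene (0.26), the dashed lines are 1.5-fold and the dotted lines 2-fold. All 4 probe sets of Lamp2 lie right of the band, whereas the probe sets of Ctsb, Ctsz and Atp6v1c1 fall on both sides of 0.

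Cathepsins, the main lysosomal proteases, lay on both sides of 1. The lowest ratios were those of Ctss, Ctsl and Ctsh. Cathepsin S, which removes the invariant chain from MHC class II in B cells and dendritic cells, stood at 2914.7 and 2440.6, a ratio of 0.837. Cathepsin L (Ctsl), which does so in thymic epithelium, had 310.0 and 261.1, a ratio of 0.842. The aminopeptidase cathepsin H (Ctsh) had 1748.8 and 1506.0, a ratio of 0.861. All 3 were read by a single probe set each, and their log2 ratios (-0.26, -0.25 and -0.22) were within the SD between probe sets of all genes (0.26) and beyond that of the lysosomal and proton pump genes (0.17).

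The genes on the other side were Ctsz, Ctsd, Ctsc and Lgmn. Cathepsin Z, a carboxypeptidase found in myeloid cells, stood at 2065.3 and 2706.2, a ratio of 1.31. Its other probe sets gave 1.04 and 0.854, so the value rests on the brightest probe set. Cathepsin D, the widely expressed aspartic protease, had 850.7 and 1090.9, a ratio of 1.28. Cathepsin C (Ctsc) is the dipeptidyl peptidase that activates serine proteases of neutrophil and lymphocyte granules. It had signals of 1259.0 and 1557.3, a ratio of 1.24. Legumain, the asparaginyl endopeptidase encoded by Lgmn that processes other cathepsins, had 396.4 and 459.6, a ratio of 1.16.

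Cathepsin E, an aspartic protease of red cell precursors and some immune cells, stood at 6671.3 and 5939.9 (0.890), and its dimmer probe set (548.2 and 707.8) gave 1.29. Cathepsin B, a broad cysteine protease, had 3372.4 and 3131.9 (0.929), with its 4 probe sets from 0.792 to 1.23. Cathepsin A (Ctsa), which stabilizes β-galactosidase and neuraminidase in a complex, had 830.7 and 786.7, a ratio of 0.947. Ctsf stayed under the filter with 43.9 and 46.9. In total 4 of the 10 genes of this group had ratios above 1 (40.0%, against 57.5% of all genes). The count was 4 with each of the 3 other scalings as well, and 5 of 10 when probe sets were averaged. The median log2 ratio was -0.093, and -0.18 to 0.016 over the other settings.

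Among the glycosidases, Gusb stood highest. β-Glucuronidase, which cuts glucuronic acid from glycosaminoglycans, had signals of 394.9 and 558.7, a ratio of 1.41. Its second probe set had 112.3 and 241.7, a ratio of 2.15, and this was the only probe set above the filter, of any of the 49 genes, to reach 2-fold. The mean of both probe sets gave 1.75. α-Mannosidase (Man2b1) had 919.4 and 1091.8 (1.19, and 0.990 from its other probe set), acid α-glucosidase (Gaa), which degrades glycogen, 132.6 and 153.3 (1.16), and the β-hexosaminidase α chain (Hexa) 545.6 and 600.7 (1.10). β-Galactosidase (Glb1) was the exception with 121.5 and 98.9, a ratio of 0.814. α-Galactosidase (Gla) was under the filter with 29.9 and 38.5. Of the 5 genes above the filter 4 had ratios above 1 (80.0%, against 57.5% of all genes), with a median log2 ratio of 0.21. When probe sets that can bind several transcripts were left out, only 3 genes remained, with a median of -0.014.

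The group of lipid hydrolases and lumenal cofactors, which also holds the peptidase Tpp1 and the glycoprotein progranulin, was level on average. Its 9 genes had ratios from 0.796 to 1.18 and a median log2 ratio of -0.016. Lysosomal acid lipase (Lipa), which frees cholesterol from its esters, had signals of 290.1 and 230.9, a ratio of 0.796. Its second probe set (107.2 and 80.1) gave 0.747, and the average over its 3 probe sets, 1 of them under the filter, was 0.628. The peptidase Tpp1 (770.6 and 664.3) had a ratio of 0.862, and 0.822 from its other probe set. Both genes were thus dimmer on the GPI-immunized array with each of their probe sets.

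Prosaposin, the precursor of the saposins that present sphingolipids to their hydrolases, had signals of 2451.6 and 2202.4 (0.898). Progranulin (Grn), a secreted and lysosomal glycoprotein of myeloid cells, had 1156.5 and 1070.6 (0.926, with further probe sets up to 1.10). The GM2 activator (Gm2a) had 922.4 and 912.2, a ratio of 0.989. Npc2, which hands cholesterol to Npc1, had 1285.2 and 1410.4 (1.10). The ceramidase Asah1 (350.9 and 389.8, ratio 1.11), the sphingomyelinase Smpd1 (153.2 and 176.9, 1.15) and the palmitoyl thioesterase Ppt1 (566.8 and 671.2, 1.18) completed the group. All 7 were within the factor of 1.20, and Smpd1 and Ppt1 were outside the factor of 1.13.

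The brightest probe set of each lysozyme gene was brighter on the GPI-immunized array. Lysozyme cuts the peptidoglycan of bacterial walls, and in mice Lyz2 is the form of macrophages and neutrophils, whereas Lyz1 is best known from Paneth cells of the gut. Lyz2 had signals of 3826.7 and 5287.4, a ratio of 1.38. Lyz1 had 5168.9 and 6696.4, a ratio of 1.30, and 4717.4 and 6034.4 from a second probe set. Both of these Lyz1 probe sets carry a suffix that marks probes able to bind other transcripts. The third Lyz1 probe set, without that suffix, had only 17.1 and 9.1, and the average over all 3 turned the ratio of Lyz1 to 0.959. The pair of genes arose by duplication, and the RefSeq promoters (GRCm38.p6, minus strand) show how alike they still are where transcription starts. The last 120 bases before the annotated start of each gene are printed here, with the 9 bases that differ in capitals, for Lyz1 at chr10:117292869-117292988 and for Lyz2 at chr10:117282273-117282392.
Lyz1: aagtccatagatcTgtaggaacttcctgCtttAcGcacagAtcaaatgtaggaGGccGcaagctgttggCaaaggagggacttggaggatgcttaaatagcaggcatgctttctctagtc
Lyz2: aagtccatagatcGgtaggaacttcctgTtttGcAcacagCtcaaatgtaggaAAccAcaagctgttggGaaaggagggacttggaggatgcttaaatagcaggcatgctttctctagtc
These stretches were identical at 92.5% of positions, and the first 50 transcribed bases at 98%, with 1 difference. Over the whole promoter of 300 bases, compared position by position, 99 bases differed and 67% were identical. No gaps were allowed, so bases shifted by an insertion or deletion would count as different. How far the likeness reaches upstream was therefore not tested. Whether Lyz2 transcripts contribute to the bright Lyz1 signals was not tested.

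Tfeb, the transcription factor that raises lysosomal genes when cells are starved or infected, had signals of 104.7 and 104.6, a ratio of 0.999. TFEB is controlled mainly by phosphorylation and its place in the cell, which an array does not measure. It binds a palindrome known as the CLEAR element, which extends TCACGTGA by a G before and a C after and has the E-box CACGTG at its centre. RefSeq promoters, from 250 bases before to 50 bases after the start, were found for 47 of the 57 genes and searched on both strands. The full palindrome was in the promoter of none of the 47, and in 0.370% of the 27025 genes with a promoter. The 8 letters TCACGTGA were found in 7 of the 47 (14.9%), against 1.12% of all genes and 1.76% of the 9882 genes of the array with a promoter. The 7 letters TCACGTG, which lie within the 8, were in 12 (25.5%), against 4.29% and 6.10%. The list was made of lysosomal genes, among which this element is known to be frequent, so the share describes the list.

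Stretches of 4 promoters show these matches in capitals and read 5′ to 3′ on the strand of the gene (GRCm38.p6). Lamp1 is shown because 4 matches stand within 75 bases before its start (chr8:13159086-13159160, plus strand), Mcoln1 (chr8:3500417-3500510, plus strand), Ctsd (chr7:142387888-142387947, minus strand) and Atp6v1a (chr16:44139354-44139421, minus strand) because they hold the 8 letters and had different ratios. Lamp2, the membrane protein with the highest ratio, had no CACGTG in this window. Its stretch (chrX:38456471-38456580, minus strand) is given for comparison, with a GC box in capitals. The box is GGGCGG on the opposite strand and so reads CCGCCC here. The printed stretches of Mcoln1 and Ctsd hold the same box as well, left in lower case. GGGCGG was in 38.2% of all genes, 61.1% of the array genes with a promoter and 68.1% of the 47.
Lamp1: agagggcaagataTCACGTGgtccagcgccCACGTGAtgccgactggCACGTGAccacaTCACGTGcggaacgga
Mcoln1: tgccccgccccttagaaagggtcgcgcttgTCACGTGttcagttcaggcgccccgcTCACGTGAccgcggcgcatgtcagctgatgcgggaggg
Ctsd: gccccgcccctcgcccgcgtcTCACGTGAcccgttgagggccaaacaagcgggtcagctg
Atp6v1a: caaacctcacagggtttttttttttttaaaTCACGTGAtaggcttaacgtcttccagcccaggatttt
Lamp2: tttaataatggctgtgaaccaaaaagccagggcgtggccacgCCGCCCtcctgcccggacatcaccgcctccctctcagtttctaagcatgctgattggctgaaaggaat
Genes with and without the 7 letters lay on both sides of 1. Above the filter, 11 with them had a median log2 ratio of 0.037 and ratios from 0.814 (Glb1) to 1.35 (Atp6v1a). The 28 without had a median of 0.028 and ratios from 0.737 (Atp6v0a1) to 1.66 (Lamp2). The 10 genes for which no promoter was found, Atp6v1b2 among them, are in neither group. Lamp1 with its 4 matches had a ratio of 1.00.

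**Figure D3:**
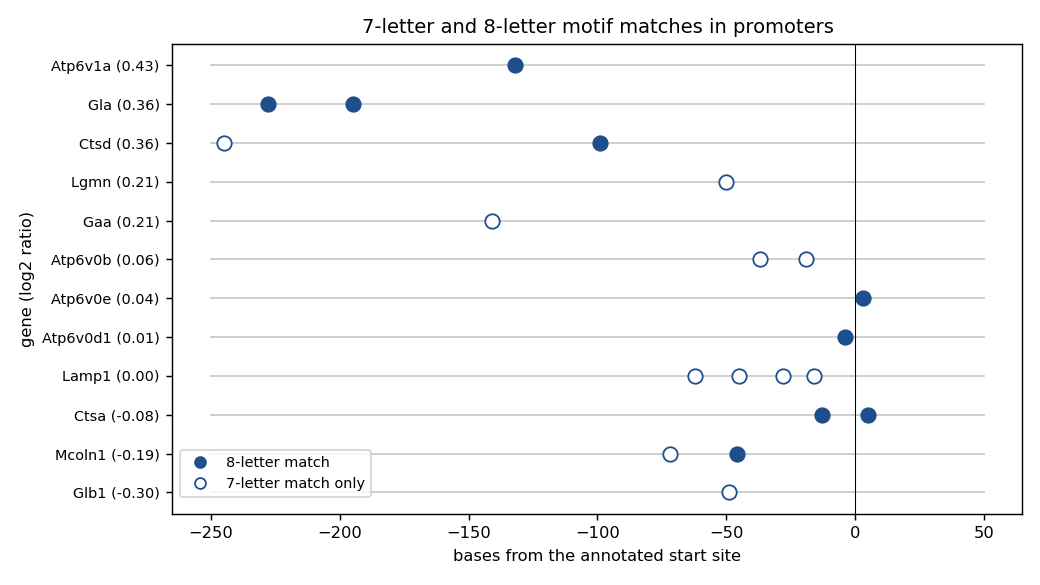
Positions of the 8-letter TCACGTGA (filled) and of the 7-letter TCACGTG alone (open) in the promoters of 12 genes, as the distance of the first base of the match from the annotated start, with the log2 ratio of each gene in brackets (Gla, at 0.36, is under the signal filter). The matches stand on both sides of the start and in genes from a log2 ratio of -0.30 (Glb1) to 0.43 (Atp6v1a).

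The SD of the log2 ratio was 0.33 for other lysosomal hydrolases and 0.55 for other membrane and transport proteins, against 0.26 for the 49. All 49 passed the filter on both arrays, whereas these lists hold 1 and 4 genes that passed on 1 array only. Of the 4, Spns1 (log2 ratio 1.38) and Mfsd8 (-1.34) were the extremes of their list. Of 26 other lysosomal hydrolases above the filter, none passed 1.5-fold upward (against 7.05% of all genes) and 3, or 11.5%, did so downward (against 3.23%), with a median log2 ratio of -0.033. The lowest was Sgsh, a sulfatase of heparan sulfate breakdown, with 97.5 and 53.5 (0.549). The nuclease Dnase2a, which digests DNA of engulfed cells, had 85.3 and 55.7 (0.653), and the iduronidase Idua 101.8 and 67.2 (0.660). The phospholipase Pla2g15 lay highest of the 26 with 114.4 and 153.6 (1.34). Of 20 other lysosomal membrane and transport proteins 3 (15.0%) were at least 1.5-fold higher and 1 (5.0%) lower, and the median was -0.021. The phospholipid transporter Spns1 had signals of 42.3 and 110.1 (2.60), Slc15a3, a transporter of histidine and peptides in myeloid cells, 66.9 and 110.2 (1.65), and Slc11a1, the phagosomal metal transporter NRAMP1, 160.0 and 247.0 (1.54). Mfsd8 had 70.3 and 27.7 (0.394). Each of these named genes but Pla2g15 was read by 1 probe set above the filter, and Spns1 and Mfsd8 passed it on 1 array only. Over the 16 of the 20 membrane and transport proteins that passed on both arrays the median was 0.058, with 2 at least 1.5-fold higher and 0 lower.

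Delivery, inhibition and control of the hydrolases were described in the same way. Of 18 genes that tag enzymes with mannose 6-phosphate or sort them to lysosomes, 1 was at least 1.5-fold higher (5.56%, against 7.05% of all genes). Another 1 was lower (5.56%, against 3.23%), and the median log2 ratio was 0.093. These were the adaptor subunit Ap1s1 (68.8 and 120.4, ratio 1.75) and the sulfatase-activating enzyme Sumf1 (177.9 and 114.5, 0.644). The mannose 6-phosphate receptors M6pr and Igf2r had ratios of 1.07 and 1.26. Among 5 cathepsin inhibitors, Cst7 (cystatin F), which is made by myeloid and cytotoxic cells and acts on cathepsin C, had 82.8 and 133.2, a ratio of 1.61, and the others lay from 0.968 (Cstb) to 1.12 (Serpinb1a). Of 17 genes of TFEB relatives and of mTORC1 at the lysosome, only 1 passed 1.5-fold upward (5.88%, against 7.05% of all genes) and none downward. It was Tfec, a TFEB relative of macrophages, with 28.6 and 60.5 (ratio 2.12). Its control signal was under the filter, so it passed through the GPI-immunized array alone.

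**Figure D4:**
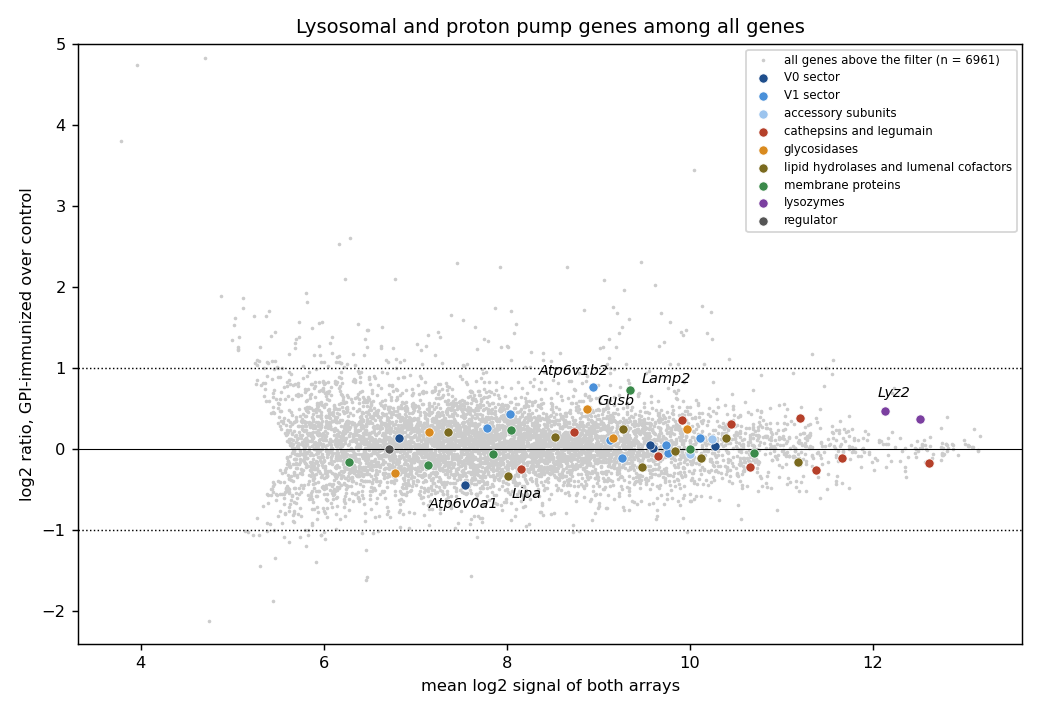
GPI-immunized over control signal as a log2 ratio (vertical axis) against the mean log2 signal of both arrays (horizontal axis) for the 6961 genes above the filter in grey and the 49 lysosomal and proton pump genes in colour, 1 point per gene and 1 array per group. None of the coloured points reaches 2-fold (dotted lines), and Lamp2, Atp6v1b2 and Gusb lie highest among them.

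Markers of cell types of the spleen did not all stay level. Of all genes above the filter, 57.5% had ratios above 1 and 42.4% below it, and 7.05% were at least 1.5-fold higher. All 19 neutrophil markers above the filter had ratios above 1, 15 of them (78.9%) at least 1.5-fold (median log2 ratio 1.10). Their signals summed to 37070 (control) and 55986 (GPI-immunized). Of 13 markers of monocytes and macrophages 7 (53.8%) were at least 1.5-fold higher (median 0.84, sums over the 17 measured of 5234 and 7129). Among these 7 were Clec4e (5.81), Cd14 (4.93), Itgam (2.41) and Fcgr3 (2.28), while Csf1r had a ratio of 1.15 and Adgre1 0.901. Clec4e and Fcgr1, and Padi4 and Cxcr2 among the neutrophil markers, passed the filter through the GPI-immunized array alone. Of the markers above it on both arrays, 13 of 17 neutrophil markers (median 1.06) and 5 of 11 monocyte and macrophage markers (median 0.20) passed 1.5-fold upward. Of 11 red pulp macrophage markers 2 (18.2%) were at least 1.5-fold higher, Cd5l (2.84) and Hmox1 (1.73), and the median was 0.19 (sums of 4824 and 5804). All 9 B cell markers (median -0.51, sums over the 10 measured of 17451 and 13166) had ratios below 1, against 42.4% of all genes. The same held for 10 of 11 T cell markers (90.9%, median -0.48, sums over the 12 measured of 2328 and 1653). Dendritic cell markers had a median of -0.28 over 7 genes, erythroid markers -0.094 over 11, and plasma cell markers 0.15 over 5. In whole splenocytes, fewer cells of a type and less RNA per cell cannot be told apart. The part of these cell types in the ratios of Lamp2, Atp6v1b2, Gusb, the lysozymes, Ctss or Lipa was not tested.

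**Figure D5:**
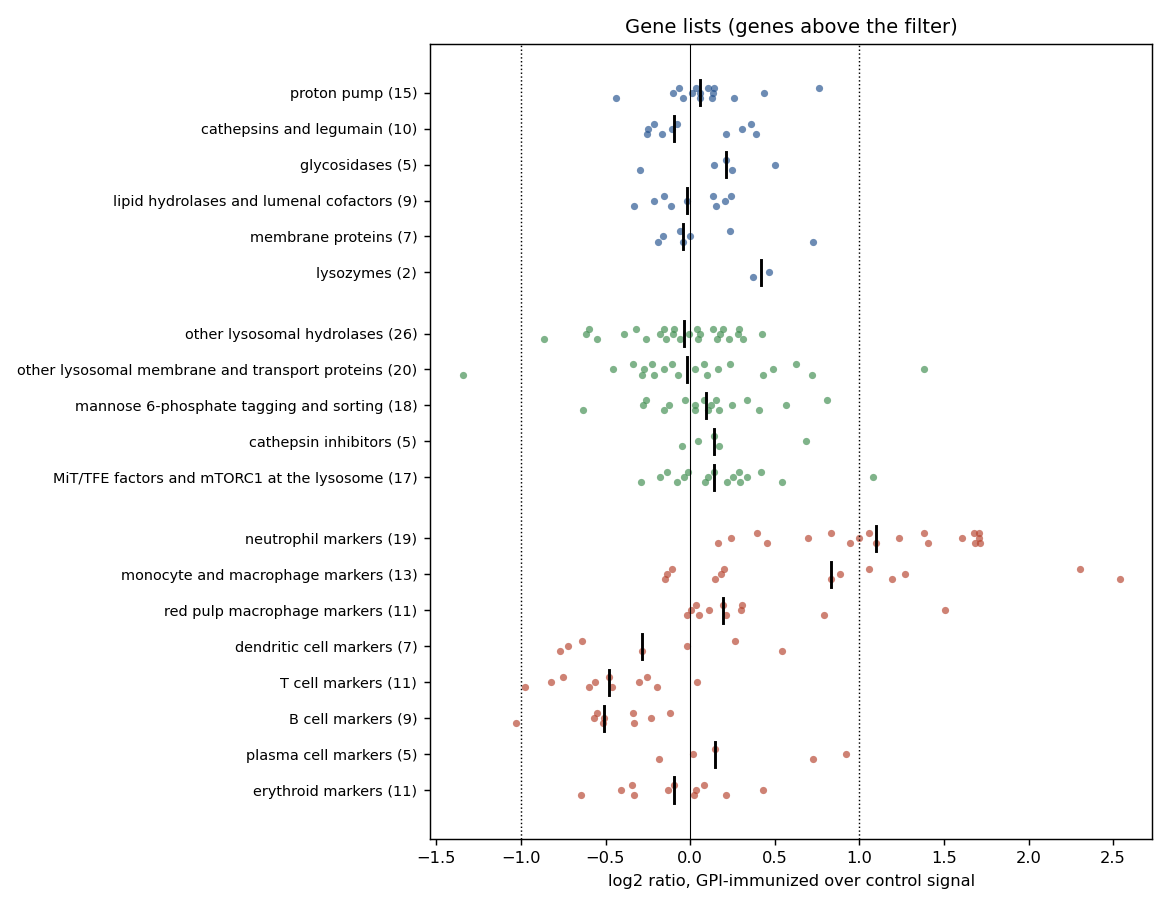
GPI-immunized over control signal as a log2 ratio for genes above the filter (1 point per gene, number of genes in brackets, 1 array per group). Vertical bars are list medians and dotted lines 2-fold. The medians of the lysosomal lists (blue, -0.093 to 0.42) and of the other lysosomal pathways (green, -0.033 to 0.14) lie between the medians of the neutrophil markers (1.10) and of the B cell markers (-0.51) in red. The median changes sign with the scaling or the choice of probe sets for the proton pump, the cathepsins, the glycosidases, the lipid hydrolases and the membrane proteins.

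The quality of the arrays as a whole set the frame for these values. The median over all probe sets was 48.65 (control) and 51.8 (GPI-immunized), and the rank correlation across 22626 probe sets was 0.966. The quotient of 3′ to 5′ signals of β-actin, which grows as RNA degrades, was 1.49 and 1.42. Of the 57 genes 28 had at least 2 probe sets above the filter, and in 20 of these all such probe sets lay on the same side of a ratio of 1.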

How the data were processed

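Splenocyte RNA was read on 2 Affymetrix mouse GeneChips, 1 per group. The authors deposited 1 intensity per probe set and array on a linear scale, made with gene expression software. How probe sets were summarized, scaled or called detected is not stated in the sources. The labels describe labelled cDNA from a whole-transcript kit and the methods biotinylated cRNA. Of 22626 probe sets besides 64 controls, 20380 had exactly 1 symbol in the platform annotation, 691 had several and 1555 were unnamed here. All 57 genes matched the RefSeq table of GRCm38.p6 by gene ID with the same symbol. Signals of 0 (3 in all) were set to 0.1 on the log scale. With a single array a group, precision cannot be estimated and no test was run.

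The genes, the lists and the 1.5-fold and 2-fold limits were chosen with earlier results of these data known. Any of the 57 genes could be named, and of each further list at most the 4 genes furthest from a ratio of 1. M6pr, Igf2r, Csf1r, Adgre1, Fcgr1, Padi4, Cxcr2, Pla2g15 and Tcirg1 were named after their values were seen. Alternatives were division by the median, quantile normalization, loess centring (span 0.4), raising signals to 14.1 (the highest of 15 bacterial control probe sets) or to the 50th percentile, averaging probe sets, leaving out probe sets with a suffix for several transcripts, no filter, a filter at the 75th percentile and a filter on the geometric mean. A ratio or median counted as moved beyond 0.26 on the log2 scale. The steps were tested on simulated data. Software was matplotlib 3.10.9, statsmodels 0.14.6, scipy 1.17.1, pandas 2.3.3 and numpy 2.4.6 under Python 3.11.15.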

Additional observations from a re-analysis of the deposited data

How the results depend on the processing

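The count of genes at least 2-fold higher or lower was 0 under the scalings, floors, choices of probe set and filters tried, and 1 higher without a filter (Atp6v0a4, with both signals at background). The count of genes at least 1.5-fold higher was 2 under the scalings, floors and filters, 3 with averaged probe sets, where Gusb (1.75) joined, and 4 without a filter, where Atp6v0a4 and Atp6v1c2 joined from background signals. The count at least 1.5-fold lower moved from 0 to 2 with averaged probe sets (Atp6v0a1 at 0.603 and Lipa at 0.628) and to 1 without a filter (Atp6v1b1, at background). Both averages took in probe sets under the filter, the dimmest with 17.5 and 3.4 (Atp6v0a1) and 30 and 12.5 (Lipa). The probe sets of these 2 genes above the filter did not reach 1.5-fold. All 60 recomputed medians stayed within 0.26 of those reported, yet those of all 49 genes together and of the proton pump, cathepsins, glycosidases, lipid hydrolases and membrane proteins each changed sign under at least 1 setting. Of 329 recomputed ratios of single genes 8 moved further, 7 of them with averaged probe sets (Lyz1 to 0.959, Ctse to 1.07 and Atp6v1e1 to 0.868 across 1) and Man2b1 (0.990) without probe sets for several transcripts. The averages of Lyz1 and Atp6v1e1 took in a probe set under the filter (17.1 and 9.1 for Lyz1, 3.3 and 1.9 for Atp6v1e1). Over all genes, 83.3% of the 2-fold differences were higher, and 70.3% after division by the median. No paired analysis was possible because each group has 1 array.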
